A study of Mus musculus with 9 samples.

Results

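Gene symbols that share exon bases, on the opposite strand, with a gene of liver function were followed across mouse liver libraries. They were the rows listed as Gm30505 (opposite Ahsg), Gm10069 (Pzp), Snx22 (Ppib), Nop9 (Cideb), Lrrc61 (Rarres2), Tardbp (Masp2), Tomm40l (Nr1i3), Plbd2 (Sds), Spryd4 (Gls2) and Pitx3 (Elovl3), 10 of the 24419 symbols in the count table. They were selected on their counts and group differences in these same libraries, so their levels, fold changes and p-values below describe them and support nothing independently.

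The RNA came from the livers of male FVB mice, 9 in all, with 3 libraries in each of 3 groups. MODEL1 livers carried NFE2L2 with the G31A change plus CTNNB1 with the T41A change and came from mice of 18 weeks. MODEL2 livers carried NFE2L2 T80K plus CTNNB1 T41A, from mice of 19, 20 and 22 weeks. NFE2L2 encodes NRF2, the transcription factor of the oxidative stress response, and CTNNB1 encodes beta-catenin, the effector of Wnt signalling. Mice of both models had been injected at 6 to 8 weeks of age, by the hydrodynamic tail vein route, with 2 ml saline holding 20 µg of each plasmid and Sleeping Beauty transposase, the enzyme that integrates such plasmids. This route delivers to a share of hepatocytes, so the sequenced tissue may mix cells with and without the plasmids. The share of cells that carried them was not measured here. CTRL mice were 13, 13 and 17 weeks old. The labels do not say whether they were injected, while the study's design names a control in which T41A beta-catenin was combined with unaltered NFE2L2. Genotype, age and injection therefore cannot be told apart in a comparison with CTRL. Between the models, every MODEL2 mouse was older than every MODEL1 mouse, so the NFE2L2 change and age cannot be told apart either. The labels name separate samples, and the p-values measure the spread between these samples. In whole tissue, fewer cells of a type and less RNA per cell cannot be told apart.

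Where genes on opposite strands share exon bases, the RNA of each holds the reverse complement of the other over that stretch. A counting program assigns such a read by the strand it came from if the library keeps that information, and by its own strand setting. Neither the strand marking of the libraries, nor the strand setting, nor the annotation used for counting is given in the sources used here. Reads of a symbol and of the liver gene opposite it therefore cannot be told apart with certainty, and each value below is that of the row carrying the symbol.

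The liver genes have well-known roles. Ahsg (fetuin-A, a mineral-binding glycoprotein), Pzp (a protease inhibitor of the alpha-macroglobulin family), Rarres2 (chemerin) and Masp2 (a protease of the lectin pathway of complement) are secreted into plasma. Ppib is a prolyl isomerase of the endoplasmic reticulum, and Cideb acts at lipid droplets and in the lipid loading of lipoproteins. Nr1i3 is the xenobiotic receptor CAR. Sds (serine dehydratase) and Gls2 (liver glutaminase) break down amino acids, and Elovl3 elongates fatty acids. The symbols opposite them are mostly known from other settings. Gm30505 and Gm10069 are annotated as antisense transcripts with no protein. Tardbp encodes the RNA-binding protein TDP-43, Nop9 an RNA-binding protein of the nucleolus, Tomm40l a relative of the mitochondrial import pore, Plbd2 a lysosomal phospholipase-like protein and Snx22 a sorting nexin. Pitx3 is a homeobox factor of the lens and of midbrain dopamine neurons.

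On mouse build mm10, in the GENCODE M21 annotation, 9 of the 10 pairs lay tail to tail, with the 3′ end of each gene inside the other, and 1 pair, Gm30505 and Ahsg, lay head to head, with the start of Gm30505 inside Ahsg. The pairs Gm30505 with Ahsg, Gm10069 with Pzp and Pitx3 with Elovl3 are shown base by base because they mark the ends of the range: the annotated antisense transcripts, which held the most counts, and the pair that shared the fewest bases. Capitals mark exon bases held by both genes, each written 5′ to 3′ on its own strand from the GENCODE M21 transcripts of the C57BL/6J reference; FVB sequence was not used here. For Gm30505 and Ahsg, 38 bases outside any annotated UTR are shown, all in the coding sequence of Ahsg, and for Gm10069 and Pzp the larger of 2 shared blocks, 165 bases, also coding in Pzp. The 10 bases shared by Pitx3 and Elovl3 are the last bases of both annotated 3′ UTRs.
Gm30505 strand, chr16:22894349-22894386 (−): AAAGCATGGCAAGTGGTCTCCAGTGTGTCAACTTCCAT
Ahsg strand, chr16:22894349-22894406 (+): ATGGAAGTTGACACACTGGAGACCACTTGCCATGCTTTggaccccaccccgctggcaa
Gm10069 strand, chr6:128502166-128502360 (+): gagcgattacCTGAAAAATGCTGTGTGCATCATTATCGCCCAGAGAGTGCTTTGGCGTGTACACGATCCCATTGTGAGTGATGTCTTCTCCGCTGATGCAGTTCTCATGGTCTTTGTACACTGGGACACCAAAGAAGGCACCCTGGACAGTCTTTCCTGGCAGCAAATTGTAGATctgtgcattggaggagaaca
Pzp strand, chr6:128502176-128502340 (−): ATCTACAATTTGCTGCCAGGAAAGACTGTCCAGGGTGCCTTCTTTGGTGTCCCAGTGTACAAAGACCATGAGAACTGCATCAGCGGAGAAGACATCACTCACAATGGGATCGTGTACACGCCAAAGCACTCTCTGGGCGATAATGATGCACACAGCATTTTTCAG
Pitx3 strand, chr19:46135685-46135714 (−): caatgaaataaacgtgcgcgGACTGTCAAA
Elovl3 strand, chr19:46135665-46135694 (+): caagtctgaatcatcaggccTTTGACAGTC

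The share of a symbol's exon bases that faced its liver gene varied widely. Gm30505, on the minus strand of chromosome 16 (22874983 to 22894386), shared 62 bases, 3.50% of its exon length, all coding in Ahsg. Gm10069, on the plus strand of chromosome 6 (128438757 to 128503281), shared 303 bases with Pzp, 6.93%, and a further 534 bases with the exon of Gm8719. Tomm40l, on chromosome 1 (171216011 to 171222514), shared 3304 bases in 7 blocks with Nr1i3, 64.3% of its own exon bases and 74.9% of those of Nr1i3. Between these lay Lrrc61 (892 bases, 30.6%), Nop9 (1136 bases, 29.9%), Snx22 (825 bases, 28.5%) and Tardbp (1817 bases, 23.3%). Spryd4 shared 97 bases (6.13%), Plbd2 360 (5.44%) and Pitx3 10 (0.655%). The shared bases lay partly in coding sequence of the liver gene in 8 of the pairs. In Spryd4 with Gls2, and in Pitx3 with Elovl3, none was coding in either gene.

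**Figure D1:**
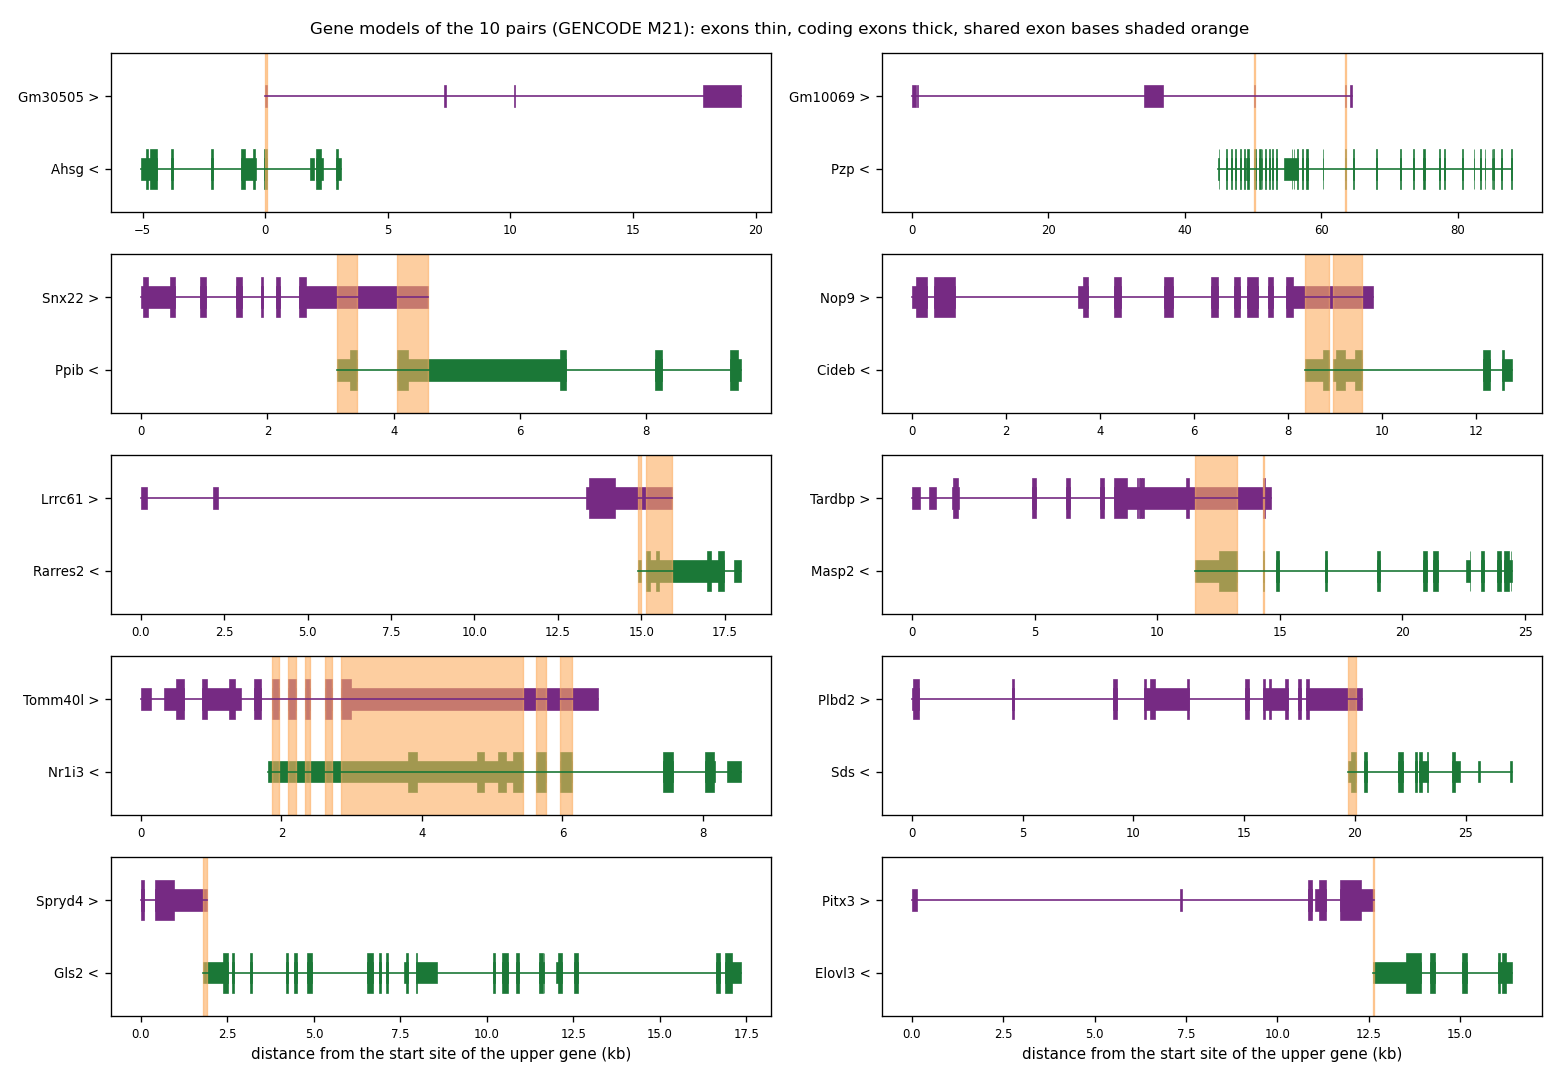
Maps of the 10 pairs, with distance from the start site of the symbol in kilobases on the horizontal axis, the symbol above the liver gene in each pair, thin boxes for exons, thick boxes for coding exons and orange shading for shared exon bases. The shared stretch covers 64.3% of the exon bases of Tomm40l and 0.655% of those of Pitx3.

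How much a pair overlapped also depended on the gene models. Counted over whole gene spans, introns included, Tomm40l and Nr1i3 overlapped by 4691 bases in GENCODE M21 and by 1044 in the RefSeq table. Plbd2 and Sds overlapped by 651 bases in GENCODE M21 and by 40 in RefSeq. For Pitx3 and Elovl3 the order was the other way, with 10 bases in GENCODE M21 and 414 in RefSeq. In Gm10069 with Pzp (19715 bases), Lrrc61 with Rarres2 (1027), Tardbp with Masp2 (3118) and Spryd4 with Gls2 (97), both sets of models gave the same overlap.

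The 10 symbols together held 428999 of all 2416157 counts, 17.8%, while the 10 liver genes opposite them held 3558 counts, 0.147%. The libraries held 219504 to 325177 counts each. Of the symbols, 7 ranked among the 13 with the most counts in the table: Gm30505 first with 164390 counts, Gm10069 at rank 3 with 141500, Snx22 at 5 with 35847, Nop9 at 6 with 32355, Lrrc61 at 9 with 24248, Tardbp at 11 with 15426 and Tomm40l at 13 with 14522. The other 3 were far down, with 459 counts for Plbd2, 128 for Pitx3 and 124 for Spryd4. None of the liver genes was abundant in this table: Masp2 had the most, 1586 counts over the 9 libraries, followed by Pzp with 539, Rarres2 with 379 and Ahsg with 346. Ppib had 20 counts and Elovl3 had 2. For scale, Alb, the gene of serum albumin, had 94 to 337 counts a library. The description of these genes as abundant in liver is therefore background knowledge and not a feature of their rows.

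The rows were also set per kilobase of the symbol's exon bases in GENCODE M21. The annotation used for counting and the RNA behind each row are not known. The order on this scale therefore describes the rows and is not an order of RNA levels. In MODEL1 livers this scale gave 23084 ± 2107 CPM (counts scaled to library size) per kilobase (SD, n = 3 here and in every mean below) for Gm30505, 8924 ± 974 for Gm10069, 5638 ± 408 for Snx22, 4165 ± 1122 for Lrrc61 and 3793 ± 78.1 for Nop9. It gave 736 ± 118 for Tomm40l, 586 ± 35.1 for Tardbp, 5.35 ± 1.87 for Plbd2, 4.01 ± 4.03 for Spryd4 and 2.54 ± 2.82 for Pitx3. MODEL2 livers stood at 39237 ± 3661 for Gm30505, 15504 ± 989 for Gm10069, 5886 ± 623 for Snx22, 4356 ± 384 for Nop9 and 3554 ± 37.8 for Lrrc61. They stood at 897 ± 120 for Tardbp, 880 ± 51.0 for Tomm40l, 97.3 ± 38.6 for Pitx3, 43.6 ± 23.8 for Spryd4 and 36.9 ± 14.5 for Plbd2. In CTRL livers Gm30505 stood at 65274 ± 2497, Gm10069 at 19753 ± 1759 and Snx22 at 4975 ± 607. Lrrc61 (3397 ± 723), Nop9 (3202 ± 397) and Tomm40l (2260 ± 725) came next, and neighbours among them differed by less than the sum of their SDs. Tardbp (1210 ± 178) followed, ahead of Spryd4 (63.4 ± 36.1), Plbd2 (55.4 ± 14.2) and Pitx3 (15.6 ± 8.20). Spryd4 and Plbd2 lay within each other's spread on this scale. Pitx3 thus ranked eighth of the 10 in MODEL2 livers and last in MODEL1 and CTRL livers, though in MODEL1 it lay within the spread of Plbd2 and Spryd4.

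The summed share of the library that the 10 symbols took differed between the groups without overlap. It was 12.7 ± 0.932% and at most 13.8% in MODEL1 livers, 18.3 ± 0.641% (17.7 to 19.0%) in MODEL2 livers and 22.8 ± 1.26% and at least 21.4% in CTRL livers. Nearly all of that difference lay in Gm30505 and Gm10069. Together they took 7.75 ± 0.731% of counts in MODEL1, 13.0 ± 0.574% in MODEL2 and 17.7 ± 1.04% in CTRL livers. The 8 other symbols summed to 4.96 ± 0.202%, 5.30 ± 0.148% and 5.08 ± 0.308% in MODEL1, MODEL2 and CTRL livers. The 10 liver genes summed to 0.138 to 0.172%, 0.136 to 0.149% and 0.119 to 0.160% in the same order, ranges that overlapped.

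A fit of all 9 libraries with edgeR's quasi-likelihood test, over the 2639 symbols that passed a filter on low counts, gave the group differences, called at a Benjamini-Hochberg adjusted p under 0.05. All 10 symbols passed the filter. It asked for at least 10 counts at the middle library size, 40.3 CPM, in at least 3 libraries. Pitx3 reached this in its 3 MODEL2 libraries alone, Spryd4 in 5 libraries, none of MODEL1, and Plbd2 in 7. A symbol kept only through the group where it is high had to differ from the others, so the counts below are no support for a pattern. Against CTRL, 7 of the 10 were called lower in MODEL1 (Gm30505, Gm10069, Tardbp, Tomm40l, Plbd2, Spryd4 and Pitx3) and none higher, beside 22.8% of all symbols tested called, 11% lower and 11.9% higher. Against CTRL, 2 were called lower in MODEL2 (Gm30505 and Tomm40l) and 1 higher (Pitx3), beside 13.3% called, 4.96% lower and 8.3% higher; with age as a covariate none of these 3 was called (edgeR adjusted p = 0.507 to 0.666). In MODEL2 against MODEL1, 6 were called higher (all of the 7 above but Tomm40l) and none lower, beside 7.28% called, 3.87% higher and 3.41% lower. The rule that chose the symbols used these contrasts, and nothing is read from the difference to the background. Median log2 fold changes over the 10 were −1.32 in MODEL1 and −0.39 in MODEL2 against CTRL, and 0.69 in MODEL2 against MODEL1, beside 0.00, 0.00 and 0.01 over all symbols tested. Both comparisons with CTRL use the same 3 CTRL libraries.

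Over all 2639 symbols, 313 were called higher and 289 lower in MODEL1 against CTRL, 219 and 131 in MODEL2 against CTRL, and 102 and 90 in MODEL2 against MODEL1. Scaled by library totals without TMM (a trimmed-mean factor per library), these splits became 365 higher and 201 lower, 248 and 95, and 68 and 69. Between the models, RLE scaling gave 83 higher and 97 lower and DESeq2 86 and 94, so the side with more calls depended on the method. The hepatocyte markers Alb, Ttr, Apoa1, Serpina1a, Fga and Trf were all detected in each group, and their summed level was 937 to 1986 CPM in MODEL1, 1410 to 1851 CPM in MODEL2 and 2152 to 2801 CPM in CTRL livers. Every MODEL1 and MODEL2 library lay below every CTRL library in this sum, as it did for Gm30505, Gm10069, Tardbp and Tomm40l, and the part of it in those differences was not tested. These marker rows were low too, with 94 to 337 counts of Alb a library, and the strand setting is unknown for them as well. The sum therefore describes the rows and is not a measure of hepatocyte content. Alb (457, 460 and 783 counts in MODEL1, MODEL2 and CTRL libraries) and Apoa1 (303, 275 and 622) held most of the sum. The other markers did not all fall alike. In MODEL2 against CTRL libraries, Fga had 112 against 158 counts, Trf 333 against 359, Ttr 75 against 79 and Serpina1a 23 against 21. Of the bile duct markers, 0 to 4 counts a library were found, 9, 1 and 0 in all in MODEL1, MODEL2 and CTRL libraries. The 6 Kupffer and macrophage markers summed to 53 counts in MODEL1, 16 in MODEL2 and 16 in CTRL libraries. Most were of Cd68, with 37, 12 and 11 counts in that order. Clec4f had 9, 0 and 3, Vsig4 3, 2 and 0, Cd5l 4, 0 and 0, Timd4 0, 2 and 2, and Adgre1 0 in every group. The 6 endothelial markers summed to 38, 24 and 25 counts in the same order, with 2 to 26 in single MODEL1 libraries. The 6 stellate and fibroblast markers summed to 17, 3 and 8. All of these sums outside hepatocytes were highest in MODEL1, on few counts. The ribosomal RNA symbol Rn45s took 2.20 to 13.4% of counts, with more than 8% in MODEL1 replicates 1 and 3 and CTRL replicate 1. Without those libraries, Gm30505, Tardbp and Spryd4 were not called between the models (edgeR adjusted p = 0.102, 0.156 and 0.177). Their log2 differences were then 0.71 ± 0.22, 0.76 ± 0.27 and 2.48 ± 0.90, against 0.77 ± 0.17, 0.61 ± 0.18 and 3.40 ± 0.74 with all libraries, and 1 MODEL1 library was left. Pitx3 was not called in MODEL1 against CTRL either (edgeR adjusted p = 0.521).

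**Figure D2:**
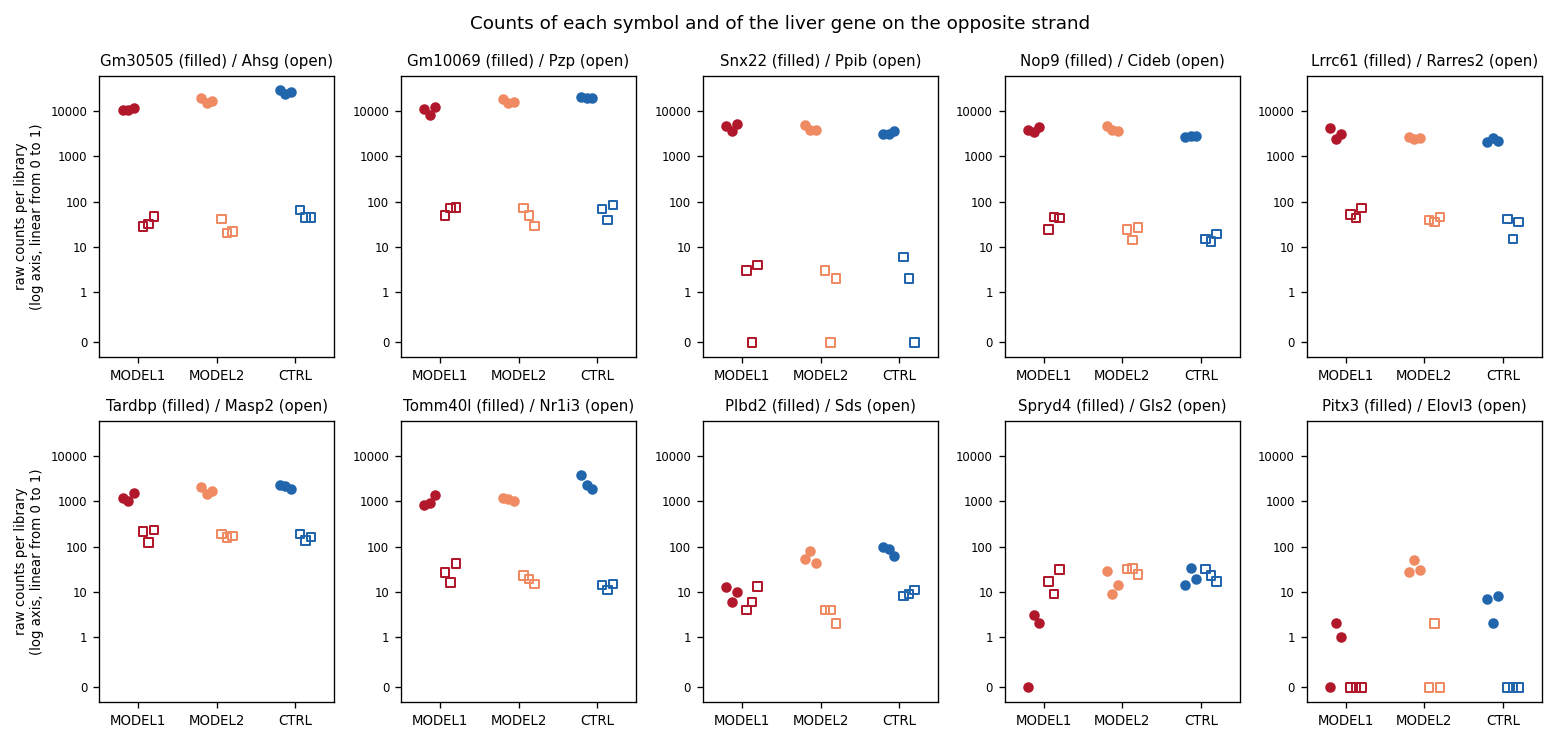
Raw counts of each of the 10 symbols (filled points) and of the liver gene opposite it (open points), 1 point per library, on a log axis that is linear from 0 to 1, with MODEL1, MODEL2 and CTRL from left to right. Gm30505 lies between 10462 and 12030 counts in MODEL1 libraries and between 24204 and 29350 in CTRL libraries, and Pitx3 is highest in the 3 MODEL2 libraries.

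The largest counts belonged to the annotated antisense symbols, and both were lower in MODEL1 livers. Gm30505 had 10462, 10591 and 12030 counts in the MODEL1 libraries and 19995, 14882 and 16539 in the MODEL2 libraries, against 29350, 24204 and 26337 in CTRL libraries. The 3 groups did not overlap on the scaled values, with MODEL1 lowest and CTRL highest. In edgeR, Gm30505 fell by 1.50 ± 0.17 (log2 fold change ± SE) in MODEL1 livers against CTRL (adjusted p = 1.03e-06). It fell by 0.73 ± 0.17 in MODEL2 livers against CTRL (edgeR adjusted p = 0.00553), and was 0.77 ± 0.17 higher in MODEL2 than in MODEL1 (edgeR adjusted p = 0.00835). Ahsg itself had 28, 32 and 47 counts in MODEL1, 41, 20 and 22 in MODEL2 and 66, 45 and 45 in CTRL libraries. Scaled, both models lay below every CTRL library, with log2 fold changes of −0.78 ± 0.32 in MODEL1 (edgeR adjusted p = 0.0805) and −1.01 ± 0.32 in MODEL2 (edgeR adjusted p = 0.0408). Ahsg was the only liver gene of the 10 pairs called in any of the 3 comparisons.

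Gm10069, opposite the protease inhibitor Pzp, had 11463, 8247 and 12236 counts in MODEL1 and 18956, 14986 and 16186 in MODEL2, against 20341, 19611 and 19474 in CTRL libraries. Its scaled level was 38997 ± 4254 CPM in MODEL1, 67753 ± 4324 in MODEL2 and 86322 ± 7687 in CTRL livers, and the groups did not overlap. It fell by 1.15 ± 0.18 on the log2 scale in MODEL1 against CTRL (edgeR adjusted p = 3.56e-05), while the log2 difference of −0.35 ± 0.17 in MODEL2 against CTRL was not called (adjusted p = 0.205). Between the models it was 0.80 ± 0.17 higher in MODEL2 (edgeR adjusted p = 0.00664). Pzp had 49, 72 and 74 counts in MODEL1, 73, 49 and 29 in MODEL2 and 69, 39 and 85 in CTRL libraries. Those groups overlapped, with log2 fold changes of −0.19 ± 0.32 and −0.44 ± 0.32 in MODEL1 and MODEL2 against CTRL.

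Snx22, Lrrc61 and Nop9 showed no called difference in any comparison. Snx22, opposite the ER isomerase Ppib, had 4611, 3563 and 5175 counts in MODEL1 and 4953, 3837 and 3807 in MODEL2, against 3061, 3196 and 3644 in CTRL libraries. Scaled to 16300 ± 1179, 17018 ± 1801 and 14383 ± 1756 CPM in that order, the groups overlapped. Its log2 fold changes against CTRL were 0.18 ± 0.17 in MODEL1 and 0.24 ± 0.17 in MODEL2 (edgeR adjusted p = 0.509 and 0.409). Ppib had at most 6 counts in a library. Lrrc61, opposite the gene of chemerin, had 4190, 2460 and 3196 counts in MODEL1 and 2730, 2392 and 2522 in MODEL2, against 2050, 2529 and 2179 in CTRL libraries, and its scaled groups overlapped too. MODEL1 replicate 1 was its highest library. Its log2 fold changes against CTRL were 0.29 ± 0.20 in MODEL1 and 0.07 ± 0.20 in MODEL2 (edgeR adjusted p = 0.328 and 0.881). Rarres2 had 52, 43 and 73 counts in MODEL1, 39, 35 and 46 in MODEL2 and 41, 15 and 35 in CTRL libraries. Scaled, its MODEL1 values lay above CTRL, at 203 ± 23.9 against 128 ± 49.0 CPM, with a log2 fold change of 0.65 ± 0.32 that was not called (edgeR adjusted p = 0.154).

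Nop9, opposite the lipid droplet gene Cideb, had 3876, 3394 and 4491 counts in MODEL1 and 4679, 3861 and 3698 in MODEL2, against 2700, 2851 and 2805 in CTRL libraries. Every scaled MODEL1 and MODEL2 value of Nop9 lay above every CTRL value, at 14414 ± 297 and 16554 ± 1461 against 12167 ± 1510 CPM. The log2 fold changes of 0.24 ± 0.17 in MODEL1 (edgeR adjusted p = 0.339) and 0.44 ± 0.17 in MODEL2 (edgeR adjusted p = 0.0950) did not pass the threshold. With libraries scaled by their totals, the MODEL2 difference in Nop9 did (edgeR adjusted p = 0.0228), as it did without CTRL replicate 2 (edgeR adjusted p = 0.0404). Cideb had 24, 46 and 43 counts in MODEL1, 24, 14 and 27 in MODEL2 and 15, 13 and 19 in CTRL libraries. Its scaled MODEL1 values all lay above CTRL, with a log2 fold change of 1.04 ± 0.38 that was not called (edgeR adjusted p = 0.0547).

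Tardbp and Tomm40l, which encode an RNA-binding protein and a mitochondrial import protein, were lower in MODEL1 livers, and Tomm40l in MODEL2 livers too. Tomm40l had 818, 935 and 1358 counts in MODEL1 and 1186, 1102 and 1043 in MODEL2, against 3834, 2323 and 1923 in CTRL libraries. Both models lay below CTRL without overlap and overlapped each other. In edgeR it fell by 1.62 ± 0.21 on the log2 scale in MODEL1 (adjusted p = 5.55e-06) and by 1.36 ± 0.21 in MODEL2 (adjusted p = 9.55e-05). The difference between the models was 0.26 ± 0.21 (edgeR adjusted p = 0.556). Nr1i3, the CAR receptor gene with which Tomm40l shares most of its exon bases, had 27, 16 and 42 counts in MODEL1, 23, 19 and 15 in MODEL2 and 14, 11 and 15 in CTRL libraries. Its scaled MODEL1 values of 101 ± 32.0 CPM lay above the CTRL values of 57.6 ± 4.83 CPM, the opposite side from Tomm40l, with a log2 fold change of 0.81 ± 0.39 that was not called (edgeR adjusted p = 0.152). Per count of Nr1i3, Tomm40l had 36.6 counts in MODEL1, 58.4 in MODEL2 and 202 in CTRL libraries, pooled over each group.

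Tardbp had 1175, 1027 and 1552 counts in MODEL1 and 2089, 1431 and 1666 in MODEL2, against 2350, 2223 and 1913 in CTRL libraries. The scaled groups did not overlap, with means of 4567 ± 274, 6989 ± 934 and 9433 ± 1387 CPM in that order. MODEL2 and CTRL nearly met, at 8013 CPM in MODEL2 replicate 1 and 8019 CPM in CTRL replicate 3, and their raw counts overlapped. Tardbp fell by 1.05 ± 0.18 in MODEL1 against CTRL on the log2 scale (edgeR adjusted p = 0.00014). The log2 difference of −0.43 ± 0.18 in MODEL2 against CTRL was not called (edgeR adjusted p = 0.117). Between the models Tardbp was 0.61 ± 0.18 higher in MODEL2 (edgeR adjusted p = 0.0387), a call that was lost without any 1 of the 6 MODEL1 and MODEL2 libraries, where its adjusted p was 0.0576 to 0.200. Masp2, opposite Tardbp and the most counted of the liver genes, had 694 ± 152, 706 ± 22.8 and 705 ± 50.4 CPM in MODEL1, MODEL2 and CTRL livers. Its log2 fold changes against CTRL were −0.02 ± 0.21 and 0.00 ± 0.21 in MODEL1 and MODEL2. The symbol's row and the liver gene's row thus gave different values from the same pair.

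**Figure D3:**
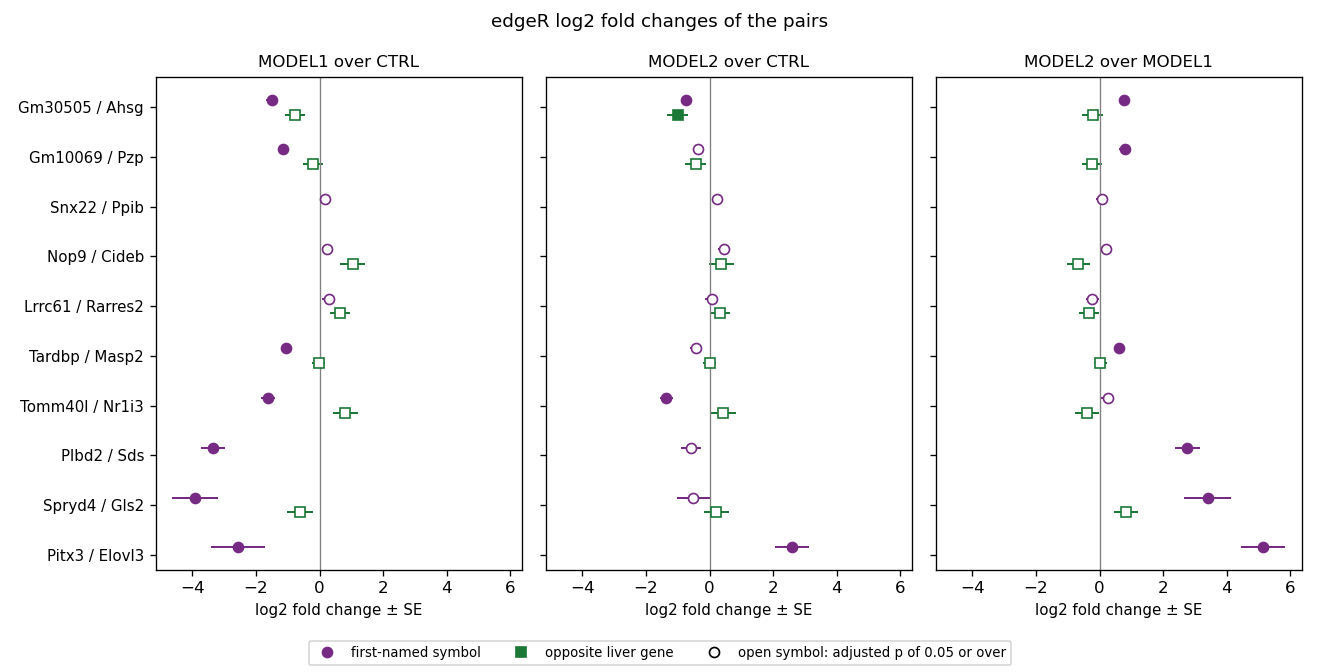
Log2 fold changes, with bars of 1 SE, of the 10 symbols and of the 7 liver genes that could be tested, for MODEL1 against CTRL, MODEL2 against CTRL and MODEL2 against MODEL1, with filled points where the edgeR adjusted p was under 0.05. Tomm40l lies at −1.62 and −1.36 in the comparisons with CTRL, while Nr1i3 opposite it lies at 0.81 and 0.42.

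The 3 symbols with few counts, Plbd2, Spryd4 and Pitx3, showed the widest fold changes in both comparisons that involve MODEL1, and the depth limits how closely they are known. A count of 0 in a library allows up to 3 counts, 9.43 to 14.6 scaled CPM. Plbd2, opposite the serine dehydratase gene Sds, had 13, 6 and 10 counts in MODEL1 and 52, 82 and 44 in MODEL2, against 100, 90 and 62 in CTRL libraries. MODEL1 lay below both other groups, which overlapped. It fell by 3.35 ± 0.38 on the log2 scale in MODEL1 against CTRL (edgeR adjusted p = 5.76e-07) and was 2.76 ± 0.38 higher in MODEL2 than in MODEL1 (edgeR adjusted p = 5.54e-05). The log2 difference in MODEL2 against CTRL was −0.59 ± 0.31 (edgeR adjusted p = 0.240). Sds had 4, 6 and 13 counts in MODEL1, 4, 4 and 2 in MODEL2 and 8, 9 and 11 in CTRL libraries, too few to be tested. Plbd2 held 56.6 ± 17.5% of the counts of its pair in MODEL1, 94.6 ± 1.53% in MODEL2 and 89.5 ± 4.03% in CTRL livers.

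Spryd4, which encodes a SPRY-domain protein, was the only symbol of the 10 with fewer counts than its liver gene, the glutaminase gene Gls2. It had 0, 3 and 2 counts in MODEL1 and 29, 9 and 14 in MODEL2, against 14, 34 and 19 in CTRL libraries. MODEL1 lay below both other groups, and MODEL2 and CTRL overlapped. The fitted log2 fold change was −3.91 ± 0.72 in MODEL1 against CTRL (edgeR adjusted p = 0.000313). In MODEL2 against MODEL1 the fitted value was 3.40 ± 0.74 (edgeR adjusted p = 0.00648), a call lost without MODEL2 replicate 1 (edgeR adjusted p = 0.0533). Gls2 had 17, 9 and 31 counts in MODEL1, 32, 33 and 24 in MODEL2 and 32, 23 and 17 in CTRL libraries, and was not called. When the rows of Spryd4 and Gls2 were added together, the log2 fold change in MODEL1 against CTRL was −1.45 ± 0.35 (edgeR adjusted p = 0.00396). Spryd4 held 10.4 ± 13.0% of the counts of its pair in MODEL1, 35.3 ± 13.1% in MODEL2 and 47.6 ± 15.3% in CTRL livers. Single libraries ranged from 0 to 25.0%, 21.4 to 47.5% and 30.4 to 59.6% in that order, so MODEL1 overlapped MODEL2.

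Pitx3, opposite the elongase gene Elovl3, was the symbol of the 10 called higher in MODEL2 than in CTRL livers. It had 0, 2 and 1 counts in MODEL1 and 28, 50 and 30 in MODEL2, against 7, 2 and 8 in CTRL libraries. Every MODEL2 library lay above every other library. Pitx3 rose in MODEL2 against CTRL by 2.58 ± 0.54 on the log2 scale (edgeR adjusted p = 0.00191). It passed the filter on low counts only through its 3 MODEL2 libraries, so it had to differ. With age as a covariate this rise was not called. Summed over the groups, 108 counts in MODEL2 and 3 in MODEL1 gave a ratio per scaled library of 39.9, with a 95% counting interval of 13.3 to 196. In MODEL1 against CTRL, 3 and 17 counts gave a ratio of 0.149 (0.0281 to 0.517); that difference was called with an edgeR adjusted p of 0.0300 but not without CTRL replicate 1 or 3 or MODEL1 replicate 1 or 3 (0.0699 to 0.0982). Elovl3 had 2 counts, both in MODEL2 replicate 2. Of 6 markers of lens and midbrain dopamine neurons, where Pitx3 is known to act, Cryaa, Crygs, Th, Slc6a3 and Lmx1b were at 0 in all libraries. Cryba1 alone was detected, with 25, 24 and 14 counts in MODEL1, MODEL2 and CTRL libraries.

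Groups of libraries that stood wholly apart were counted for both rows of each pair. In MODEL1 against CTRL, 8 of the 10 symbols and 4 of the 10 liver genes had libraries that did not overlap, beside 35.9% of all symbols tested. In MODEL2 against CTRL the counts were 6 symbols and 2 liver genes, beside 29.9%. Of these, Tardbp stood apart by a narrow margin, with 8013 CPM at most in MODEL2 and 8019 CPM at least in CTRL. In MODEL2 against MODEL1 they were 7 symbols and 1 liver gene, Gls2, beside 26.8%. The liver genes had far fewer counts, so a difference of a given size was harder to detect in their rows. Both rows could be tested in 7 pairs, and the signs of their fitted log2 fold changes, most of them uncalled in the liver genes, did not follow a fixed relation. In MODEL1 against CTRL the signs differed in 1 pair, Tomm40l with Nr1i3, with Masp2 at −0.02 ± 0.21 counted as negative. In MODEL2 against CTRL they differed in 3 pairs, those of Masp2, Nr1i3 and Gls2. In MODEL2 against MODEL1 they differed in 4, with Ahsg (−0.22), Pzp (−0.24), Cideb (−0.67) and Nr1i3 (−0.40) below 0 and their symbols above.

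The share of a pair's counts in the symbol's row stayed above 98% in every group for Gm30505, Gm10069, Snx22, Nop9 and Lrrc61. For Tardbp it was 86.9 ± 2.41% in MODEL1, 90.8 ± 0.841% in MODEL2 and 93.0 ± 1.06% in CTRL livers. For Tomm40l it was 97.4 ± 0.823% in MODEL1, 98.3 ± 0.243% in MODEL2 and 99.5 ± 0.213% in CTRL livers. For Tardbp and Tomm40l, the symbol's counts per count of its liver gene were therefore not the same in every group. Pooled over each group, Gm30505 had 309 counts per Ahsg count in MODEL1, 619 in MODEL2 and 512 in CTRL libraries. Single libraries ranged from 256 to 374, 488 to 752 and 445 to 585 in that order, so MODEL2 overlapped CTRL. Gm10069 had 164, 332 and 308 per Pzp count, pooled likewise. Its single libraries ranged from 115 to 234, 260 to 558 and 229 to 503, so CTRL overlapped both models.

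Other liver genes with a symbol on the opposite strand gave a mixed picture. Of 115 liver genes in the table from lists of plasma proteins, complement and coagulation factors, amino acid enzymes, lipid genes, regulators and secretory chaperones, 21 had a symbol of the table sharing exon bases on the opposite strand. Without the liver genes of the 10 pairs, 11 remained, and the opposite symbol had more counts than the liver gene in 3 and fewer in 8. The 3 were Gm16548 opposite the coagulation factor gene F5 (13007 against 221 counts), Atp6v1c2 opposite Pdia6 (133 against 12) and Slc22a3 opposite the plasminogen gene Plg (195 against 194). Among the 8, Zbtb37 had 6 counts opposite the 118 of the antithrombin gene Serpinc1, with which it shares 2942 exon bases. Teddm2 had 0 counts opposite the 306 of the glutamine synthetase gene Glul. In 9 of the 10 pairs described here the symbol had more, and since the pairs were picked with those counts known, the proportions cannot be set against each other.

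**Figure D4:**
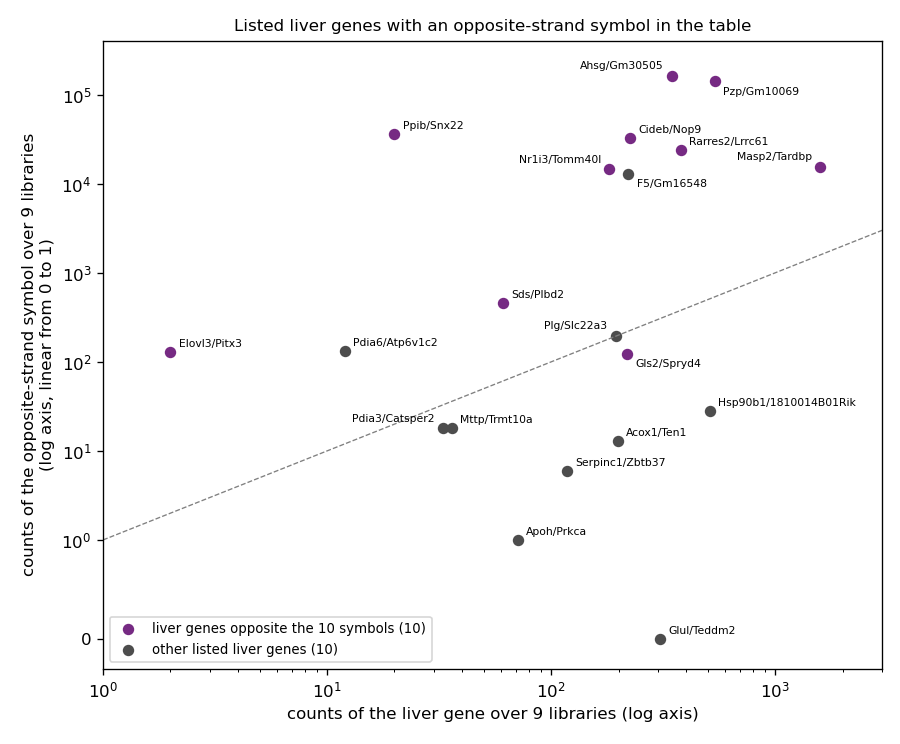
Total counts over the 9 libraries of 20 of the 21 liver genes on the horizontal axis and of the symbol opposite each on the vertical axis, both log scales, with the 10 pairs of this account and 10 others marked apart and a line of equal counts. The opposite symbol lies above the line in 12 of the 20, of which 9 are among the 10 pairs and 3 among the others.

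Of those other neighbours, Gm16548 had the most counts. It stood at 5418 ± 670 CPM in MODEL1, 5974 ± 91.7 in MODEL2 and 6085 ± 330 in CTRL livers, with log2 fold changes against CTRL of −0.17 ± 0.17 and −0.03 ± 0.17 (edgeR adjusted p = 0.525 and 0.939). Among the rest, 1810014B01Rik opposite the chaperone gene Hsp90b1 had 28 counts and Catsper2 opposite Pdia3 had 18, too few to be tested.

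The tested gene most alike in pattern to each symbol, by Pearson r of log2 CPM over the 9 libraries, was named as a description, since the libraries fall into groups. Lin7a was the most alike to Gm30505 (r = 0.984) and also to Tardbp (r = 0.980). For Gm10069 it was Tubgcp6 (r = 0.986), for Plbd2 Eri2 (r = 0.987), for Spryd4 Serpina1b (r = 0.978) and for Tomm40l Fbxo22 (r = 0.966). Nop9 was paired with Ovol3 (r = 0.956), Snx22 with Serinc4 (r = 0.933), Pitx3 with Pogk (r = 0.922) and Lrrc61 with B3gat2 (r = 0.860). Several of these genes themselves share exon bases with a gene on the opposite strand in GENCODE M21: Tubgcp6 with Selenoo, Eri2 with Acsm3 and Rexo5, Fbxo22 with Nrg4, Serinc4 with Hypk and Serf2, Pogk with Tada1 and B3gat2 with Smap1. Lin7a, Ovol3 and Serpina1b do not. The share of all symbols tested that do so was not counted, so nothing is read from this list. Serpina1b belongs to a family of near-identical copies, so its 73 counts are uncertain.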

How the data were processed

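The deposited values are counts, whole numbers of reads for each symbol in 9 libraries, not normalized. The submitters' processing notes name build mm10 and the tools HTSeq 0.11.2, HISAT2 2.1.0 and Trimmomatic 0.38; the role of each, the annotation and the strand setting are not given in the sources used here. Every column was matched to 1 library by its name. Library totals were 219504 to 325177. Counting intervals pool the 3 libraries of a group and leave out the spread between samples. PCR duplicates of a molecule may be counted more than once, so these intervals may be too narrow for the error of counting as well.

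Counts were fitted in R 4.3.3 with edgeR 4.0.16: filterByExpr by group (minimum count 10, 2639 symbols kept), TMM scaling, glmQLFit over all 9 libraries with a coefficient per group, and quasi-likelihood F tests with Benjamini-Hochberg adjustment over all symbols tested at 0.05. Standard errors are the log2 fold change divided by the square root of F. Scaled CPM are counts over TMM-scaled library sizes. The fit was tested on simulated data. Alternatives were DESeq2 1.42.0, other scalings, filters, age as a covariate, a replicate block, libraries left out, and rows of a pair summed. Of 24419 symbols, 23990 were placed on GENCODE M21, 657 of them through a RefSeq synonym; shared exon bases were checked with bedtools 2.31.1.

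The symbols, the liver gene lists and the tests were chosen with earlier results of these data known. Named genes are the 10 symbols, the liver genes opposite them, the tested gene with the highest Pearson r to each symbol, and the opposite-strand neighbours with the most counts among the listed liver genes. Zbtb37 and Teddm2 were named after their values were seen. Of the listed liver genes with an opposite-strand symbol, 1 and its neighbour are not reported here.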

Additional observations from a re-analysis of the deposited data

Results flagged for a closer look

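In 6 of the 10 symbols the effects of the models against CTRL differed from each other by a direct test of MODEL2 against MODEL1 in edgeR, which uses no CTRL library in the difference. Every MODEL2 mouse was older than every MODEL1 mouse, so the NFE2L2 change and age cannot be told apart in this comparison. Over all symbols tested, 7.28% were called in this comparison. The log2 differences, each higher in MODEL2, were 5.15 for Pitx3, 3.40 for Spryd4, 2.76 for Plbd2, 0.80 for Gm10069, 0.77 for Gm30505 and 0.61 for Tardbp. In each of the 6 symbols, all 3 MODEL2 libraries lay above all 3 MODEL1 libraries on the scaled values, beside 26.8% of all symbols tested whose libraries did not overlap. Pitx3 passed the filter on low counts only through its 3 MODEL2 libraries, so it had to differ. Spryd4 passed through MODEL2 and CTRL libraries and none of MODEL1, so its difference is no support either. These symbols were picked with the group differences known, so the differences are a description.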

How the results depend on the processing

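Depth limits Pitx3, Spryd4, Plbd2 and most of the liver genes, where single counts move a value. Leaving out 1 library at a time gave 497 to 636 called symbols for MODEL1 against CTRL, with 6 to 7 of the 10. The counts were 221 to 379, with 3 to 4 of the 10, for MODEL2 against CTRL, and 85 to 226, with 4 to 6 of the 10, between the models. The log2 fold change changed sign in that step for Snx22 (−0.0143 to 0.133) and Lrrc61 (−0.352 to 0.0325) between the models, and for Lrrc61 (−0.0470 to 0.246) and Spryd4 (−1.03 to 0.0218) in MODEL2 against CTRL. With age as a covariate, called symbols numbered 299, 71 and 101 in MODEL1 against CTRL, MODEL2 against CTRL and MODEL2 against MODEL1. The ages of the groups did not overlap in any of these comparisons. With this covariate, 0 of the 10 symbols were called in MODEL2 against CTRL. Gm30505, Tomm40l and Pitx3 stood at edgeR adjusted p = 0.516, 0.666 and 0.507. The log2 fold changes of Tardbp, Plbd2 and Spryd4 in MODEL2 against CTRL became 0.0385, 0.40 and 0.46. The Pitx3 call in MODEL1 against CTRL was lost too (0.0902). Without the libraries rich in Rn45s, which leaves 1 MODEL1 library assumed to vary like the other groups, 299, 210 and 62 symbols were called. Of the 10, 3 were then called between the models (Gm30505, Tardbp and Spryd4 were lost at edgeR adjusted p = 0.102, 0.156 and 0.177), and the sign changed for Snx22 (−0.0844) and Lrrc61 (−0.0952) in MODEL1 and for Lrrc61 in MODEL2 against CTRL (−0.0267) and against MODEL1 (0.0685). Scaling by library totals moved the median of all symbols by 0.16 in MODEL1 and 0.10 in MODEL2 against CTRL, and the Pitx3 call in MODEL1 was lost (0.0584). Same-numbered libraries did not deviate together (correlations −0.12 to 0.01, beside −0.06 to 0.10 for libraries of unlike number). With 3 libraries a group, this cannot show that the numbers pair nothing. With a replicate block, 125 symbols were called between the models and Tardbp was not (edgeR adjusted p = 0.0874). Tardbp was also lost there with RLE scaling (0.0518) and with its row added to that of Masp2 (0.0614). DESeq2 called 581, 331 and 180 symbols, and 7, 3 and 6 of the 10. The cause of these changes was not tested.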
